A study of Mus musculus with 11 samples.

Results

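The 9 genes described here are transcripts of tissue macrophages. They are C1qa, C1qb and C1qc, which encode the chains of complement C1q, together with Csf1r, Cd68, Mrc1, Cd163, Trem2 and Gpnmb. They were taken by name from the count table of 23420 gene symbols, and all 9 passed the filter on low counts that kept 14531 genes. RNA came from the fibrocartilage of the mandibular condyle, the jaw side of the temporomandibular joint, of ovariectomized female C57BL/6 mice. Removal of the ovaries takes away the main source of circulating estrogen. Surgery was at 6 weeks of age, and the tissue was taken at 7 weeks after 1 week with a placebo pellet or a pellet holding 0.01 mg of 17β-estradiol made to release over 60 days. The mice were wild type (WT) or carried an estrogen receptor alpha knockout (ERalphaKO, here KO), whose construct the labels do not describe. This gave 4 groups, with 2 libraries of WT with placebo (WT Plb), 3 of WT with estradiol (WT E2), 3 of KO with placebo (KO Plb) and 3 of KO with estradiol (KO E2). All mice lacked ovaries, so no group had its own ovarian estrogen. The labels do not say that each library is a separate animal, so the p-values reflect no more than the scatter of these samples, part of which may be technical.

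Macrophages of most tissues depend on signalling through the receptor encoded by Csf1r, which binds the ligands CSF1 and IL-34, and their identity depends on the transcription factor PU.1. They are the main source of C1q, the recognition part of the classical complement pathway, whose A, B and C chains fold together into 1 molecule. C1q binds immune complexes and dying cells, and the proteases C1r and C1s join it to start the cascade. In bone and at the mineralising edge of cartilage, cells of the same lineage fuse into osteoclasts, which also carry CSF1R. Libraries were made from whole tissue, so fewer cells of a type and less RNA per cell cannot be told apart in any value below.

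The C1q genes lie side by side in the reference annotation. C1qb, C1qc and C1qa are consecutive protein-coding genes on chromosome 4, between Ephb2 and Epha8. The stretches before the starts of C1qb and C1qc are shown because the 3 chains moved together in every library, as described below. Both come from RefSeq on build GRCm38.p6 and are read on the minus strand, 5′ to 3′. C1qb is chr4:136886201-136886450, the 250 bases before its start, and C1qc is chr4:136893066-136893164, the part of that window that overlaps no annotated exon of the gene. Capitals mark a PU.1 core, GAGGAA or its reverse complement TTCCTC, and an E-box of the kind bound by MITF and TFE factors, CATGTG or its reverse complement CACATG.
C1qb: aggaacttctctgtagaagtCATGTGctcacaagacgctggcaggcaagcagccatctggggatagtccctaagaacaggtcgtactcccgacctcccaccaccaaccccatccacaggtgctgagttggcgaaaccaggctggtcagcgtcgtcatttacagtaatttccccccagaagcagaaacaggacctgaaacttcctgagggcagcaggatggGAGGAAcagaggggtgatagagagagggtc
C1qc: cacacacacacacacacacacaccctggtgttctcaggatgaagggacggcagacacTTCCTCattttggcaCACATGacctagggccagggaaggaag
Counted back from the start, the C1qb PU.1 core begins at -30 and its E-box at -230. In C1qc the PU.1 core begins at -193 and the E-box at -178, both on the other strand. The C1qc E-box overlaps the letters TGACC, the reverse complement of GGTCA, the core of an estrogen response element. Windows of 7 of the 9 genes were searched. C1qa and Csf1r were not among them, so the counts that follow say nothing of their promoters. The PU.1 core was found in 5 of these 7 windows of 250 bases, on either strand, beside 23.3% of all 32851 promoters. The E-box was in 3 windows, C1qb, C1qc and Mrc1, beside 12.3% of all promoters. The windows of Gpnmb and Cd163 held neither the PU.1 core nor the E-box. GGTCA was in 3 windows, C1qb, C1qc and Trem2, beside 35.2% of all promoters. The full palindromic element, with 2 such cores facing each other across a spacer of 3 bases, was in 0 of the 7 and in 0.0639% of all promoters. A match describes the letters of the window and is not a measured binding site.

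Libraries held 15.68 to 25.46 M counts. WT Plb 2 stood apart in Rn45s, a ribosomal RNA precursor, which took 16.04% of its counts and 1.834 to 3.126% of the counts of the other libraries. Skeletal muscle markers summed to 1616 counts per M of the library total (CPM, scaled for library composition) in that library and to 46.8 in WT Plb 1, the only other WT placebo library. Comparisons with WT Plb are therefore also given without each of these libraries where a call or a direction changed, and leaving out Rn45s changed no call among the 9 genes. Esr1, which encodes estrogen receptor alpha, was at 6.43 to 13.4 CPM in WT and 2.55 to 4.86 CPM in KO libraries, so these ranges did not overlap. The log2 difference of KO from WT was -1.11 under estradiol (SE 0.281, edgeR adjusted p = 0.0257, up to 0.096 without KO E2 2) and -1.39 under placebo (SE 0.301, edgeR adjusted p = 0.468). The placebo value ran from -1.80 to -0.78 over 20 alternatives, with an adjusted p under 0.05 in 1. Whether the remaining Esr1 counts come from outside the deleted part cannot be told apart from expression, because the construct is not described. Bone and cartilage transcripts were present in all libraries. Osteoblast markers summed to 55090 CPM or more in every library and cartilage markers to 6668 CPM or more, while the 9 genes together were at 612 to 1122 CPM. Col1a1 alone was at 45420 to 77860 CPM, so the osteoblast sum mostly follows that single gene and is no measure of osteoblasts. Ibsp, another gene of that list, was at 2344 to 6134 CPM.

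**Figure D1:**
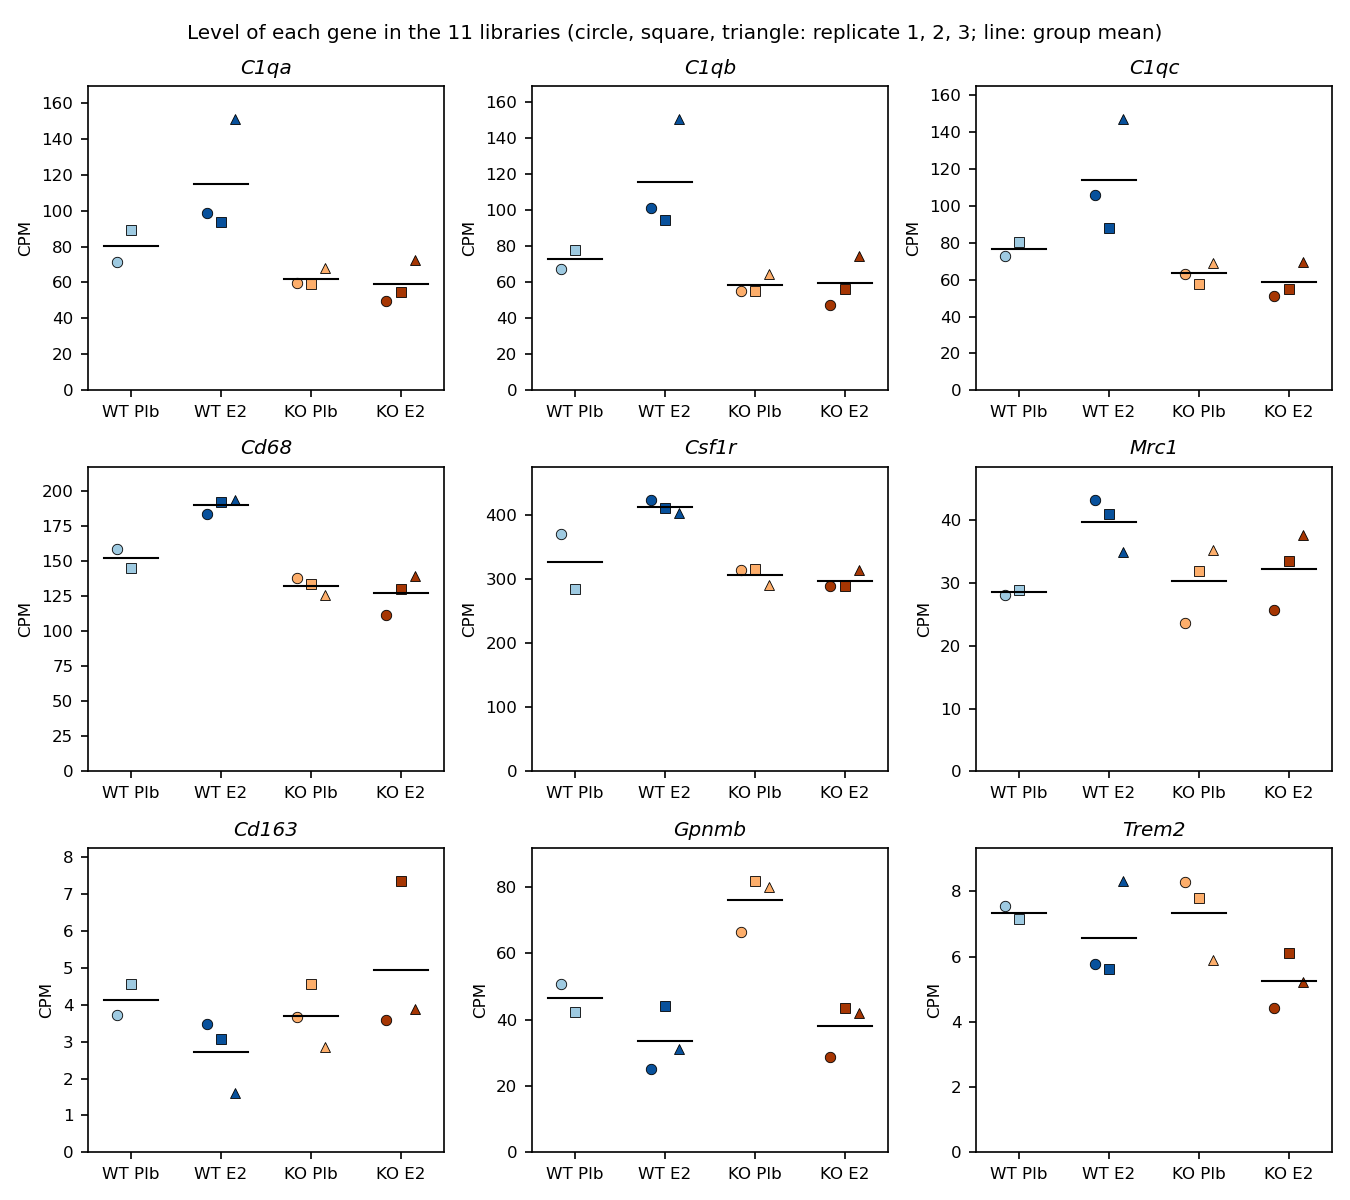
Level of each of the 9 genes in CPM (vertical axes, linear and starting at 0) in each library of the 4 groups (horizontal axes), with circle, square and triangle for replicates 1, 2 and 3 and a line at the group mean. The C1q genes, Cd68 and Csf1r are highest in the 3 WT E2 libraries, and Gpnmb is highest in the 3 KO Plb libraries.

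The 4 groups allow 5 comparisons, and each gene was tested in all of them with the quasi-likelihood test of edgeR, its p-values adjusted by Benjamini-Hochberg over 14531 genes. Differences are log2 fold changes with their standard error (SE). Called means an adjusted p under 0.05. The effect of estradiol in WT and the comparison of KO with WT under estradiol share the 3 WT E2 libraries, so a high level there enters both. In KO against WT under estradiol, 5 of the 9 genes were lower, namely C1qa, C1qb, C1qc, Cd68 and Csf1r, where 11.5% of all genes were called, 7.27% of all genes as higher and 4.2% as lower. The median log2 difference of the 9 genes was -0.47, beside a median of -0.0010 over all genes. Estradiol in KO changed 1 of the 9, Gpnmb, which fell, where 2.73% of all genes were called, 2.36% as higher and 0.365% as lower. With the replicate number as a block, the same gene alone was called, while the genes called over the whole table went from 343 to 542 higher and from 53 to 87 lower. Estradiol in WT changed 0 of the 9 at this threshold, where 1.55% of all genes were called, 0.654% as higher and 0.895% as lower, while 6 of the 9 had an unadjusted p under 0.05. KO against WT under placebo had 0 of the 9 called, where 0.00688% of all genes were called, and 1 of the 9 had an unadjusted p under 0.05. The interaction, which is the estradiol effect in WT minus that in KO, was called for 0 of the 9, where 1.15% of all genes were called, 0.31% as higher and 0.84% as lower, and 3 had an unadjusted p under 0.05.

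The groups can also be compared by whether their libraries overlap. With estradiol in WT, 6 of the 9 genes were higher and 1 was lower in every library, where 27% of all genes had no overlap, 13.2% as higher and 13.8% as lower. In KO against WT under estradiol 1 was higher and 5 were lower in every library, where 34.6% of all genes had no overlap, 17.7% as higher and 16.9% as lower. With estradiol in KO 0 were higher and 1 was lower in every library, where 24.8% of all genes had no overlap, 12.4% as higher and 12.4% as lower. Under placebo 1 was higher and 4 were lower in every KO library than in both WT libraries, where 27% of all genes had no overlap, 13.2% as higher and 13.8% as lower.

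C1qa, the A chain of C1q, was at 71.6 and 89.3 CPM in WT Plb, at 98.8, 93.6 and 151 in WT E2, at 59.7, 58.9 and 68.0 in KO Plb, and at 49.9, 54.6 and 72.8 in KO E2. All 3 WT E2 libraries lay above all others, and the third was far above its group. C1qb, the B chain, was at 67.6 and 78.1 CPM in WT Plb, at 101, 94.2 and 151 in WT E2, at 55.3, 55.1 and 64.6 in KO Plb, and at 47.6, 56.4 and 74.4 in KO E2. C1qc, the C chain, was at 72.9 and 80.2 CPM in WT Plb, at 106, 88.2 and 147 in WT E2, at 63.2, 57.7 and 69.0 in KO Plb, and at 51.0, 55.1 and 69.4 in KO E2. For each chain the WT E2 libraries were above every other library, and the KO Plb libraries were below both WT Plb libraries.

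Under estradiol the C1q genes were lower in KO than in WT by nearly the same factor. C1qa differed by a log2 of -0.95 (SE 0.195, edgeR adjusted p = 0.0119), which is 1.94-fold lower. The difference was -0.95 for C1qb (SE 0.196, edgeR adjusted p = 0.0121). It was -0.96 for C1qc (SE 0.174, edgeR adjusted p = 0.00592). These values rest in part on WT E2 3, and without it they were -0.70, -0.72 and -0.73, with edgeR adjusted p of 0.0246, 0.03 and 0.0106. Without KO E2 2, the C1qa and C1qb calls were lost, at -0.89 (edgeR adjusted p = 0.0541) and -0.91 (edgeR adjusted p = 0.0538). In the authors' deposited table for the same pair of groups, the 3 genes had log2 values of -0.94 each, with adjusted p of 1.53e-05, 2.18e-05 and 3.92e-06.

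Within WT, the C1q genes were higher with estradiol than with placebo in every library, but the differences missed the threshold. C1qa was higher by a log2 of 0.51 (SE 0.219, edgeR adjusted p = 0.325). C1qb was higher by 0.66 (SE 0.222, edgeR adjusted p = 0.188), and C1qc by 0.57 (SE 0.195, edgeR adjusted p = 0.192). Of all genes, 13.2% were higher in every WT E2 library than in every WT Plb library. Only under DESeq2 was a chain called, C1qb at 0.66 with an adjusted p of 0.0458, and in the authors' deposited table it stood at 0.64 with an adjusted p of 0.054. Without WT E2 3 the C1qa, C1qb and C1qc differences were 0.26, 0.42 and 0.34, and without WT Plb 2 they were 0.68, 0.77 and 0.64, with 0 of them called. In KO the corresponding differences were small and of either sign, at -0.07 for C1qa (SE 0.195), 0.03 for C1qb (SE 0.196) and -0.11 for C1qc (SE 0.173), and the KO E2 libraries overlapped those of KO Plb. The difference between the effects in WT and KO was 0.58 for C1qa (SE 0.292, edgeR adjusted p = 0.513), 0.64 for C1qb (SE 0.295, edgeR adjusted p = 0.456) and 0.69 for C1qc (SE 0.26, edgeR adjusted p = 0.298). Without WT E2 3 they were 0.33, 0.40 and 0.46. An effect of estradiol that differs between genotypes was therefore not called for any chain. Under placebo, KO against WT gave -0.37, -0.32 and -0.27, with edgeR adjusted p of 0.596, 0.631 and 0.642. Without WT Plb 1 these were -0.52, -0.42 and -0.34, and without WT Plb 2 they were -0.20, -0.21 and -0.20.

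The 3 chains kept nearly fixed proportions. The count ratio of C1qa to C1qb ran from 0.967 to 1.14 over the 11 libraries, a coefficient of variation (CV) of 5.29%. C1qa to C1qc ran from 0.933 to 1.11 (CV 5.29%), and C1qb to C1qc from 0.875 to 1.07 (CV 6.44%). The levels themselves varied far more, with C1qa, C1qb and C1qc spanning 3.03-, 3.17- and 2.89-fold in CPM from the lowest to the highest library (CV 36.6%, 38.6% and 35.6%). The chains are thus not separate evidence of a difference between groups, since they share libraries and move as 1 quantity. These ratios, and those given below, were chosen after the values were seen.

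**Figure D2:**
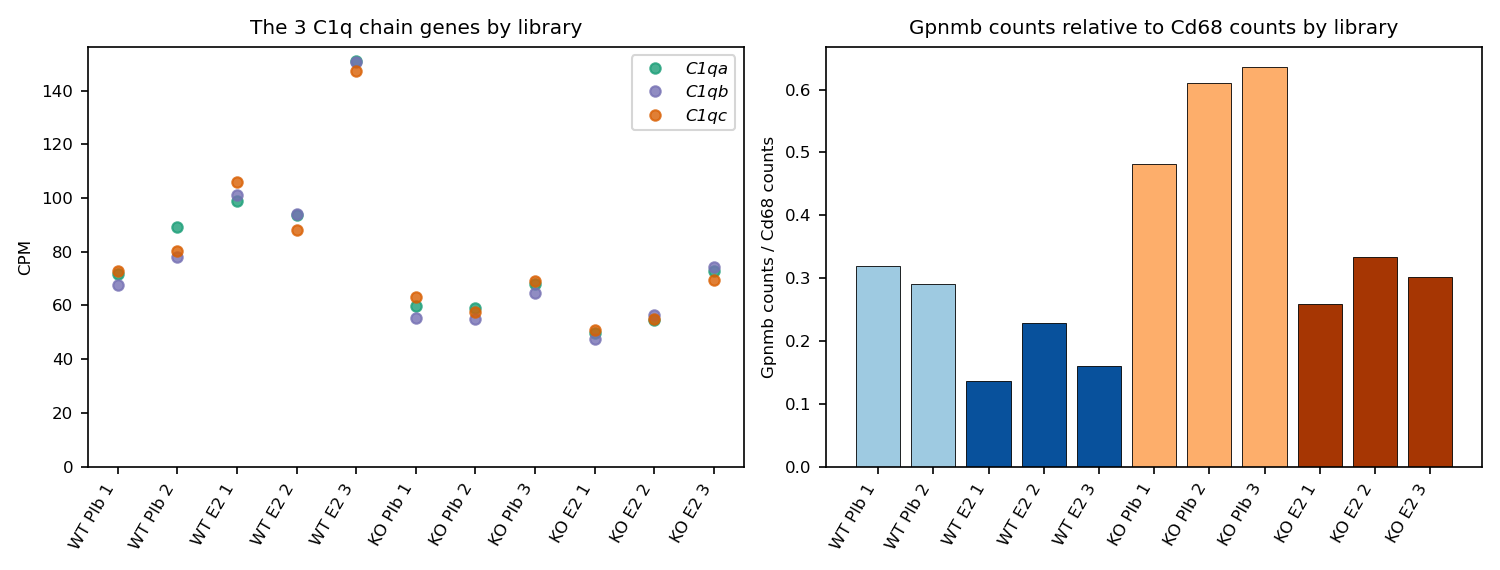
Left, the levels of C1qa, C1qb and C1qc in CPM (points) in each of the 11 libraries (horizontal axis), and right, the count ratio of Gpnmb to Cd68 (bars from 0, no unit) in the same libraries, coloured by group. The 3 chains lie close together in every library, and the ratio is highest in KO Plb, from 0.481 to 0.636.

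The complement proteases that join C1q are made mostly by other cells, such as fibroblasts, and did not follow its chains. C1ra, a C1r gene, differed by -0.03 with estradiol in WT and by 0.15 between KO and WT under estradiol (edgeR adjusted p = 0.959 and 0.505). C1s was higher in KO under estradiol by 0.51 (SE 0.143, edgeR adjusted p = 0.0398), opposite in sign to C1q, and missed the threshold in 5 of 20 alternatives, each without 1 library, with adjusted p up to 0.138. Of a list of 26 complement genes other than C1q, 24 were tested. Under estradiol 3 were higher and 2 lower in KO than in WT, with a list median of 0.0226, and 0 were called in each of the other 4 comparisons. Over all genes the shares under estradiol were 7.27% higher and 4.2% lower. C3ar1, the receptor for the C3a fragment found on myeloid cells, was lower at -1.04 (SE 0.184, edgeR adjusted p = 0.00404). Itgax, an integrin chain of a complement receptor on myeloid cells, was lower at -0.54 (SE 0.122, edgeR adjusted p = 0.0152) and missed the threshold without WT E2 3, KO E2 2 or KO E2 3, with adjusted p up to 0.0563. C3, the central component of the cascade, was higher in KO at 3.37 (SE 0.53, edgeR adjusted p = 0.00592). In KO E2, C3 was at 22.05, 75.3 and 33.4 CPM, in the library order of the neutrophil markers described below. Which cells made C3 was not tested. Clu, a fluid-phase inhibitor of the terminal pathway, was higher at 0.71 (SE 0.169, edgeR adjusted p = 0.0217) and missed the threshold without any of 4 libraries, with adjusted p up to 0.0798.

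Csf1r encodes the receptor that macrophages and osteoclasts need to survive. It was at 369 and 284 CPM in WT Plb, at 424, 411 and 403 in WT E2, at 313, 315 and 291 in KO Plb, and at 289, 288 and 314 in KO E2. The WT E2 libraries were the highest of all, and the 2 WT Plb libraries lay on either side of the highest KO library. Under estradiol Csf1r was lower in KO than in WT at -0.47 (SE 0.0951, edgeR adjusted p = 0.00814), or 1.39-fold. In WT the difference with estradiol was 0.33 (SE 0.107, edgeR adjusted p = 0.157). It turned on which WT placebo library was kept, being 0.53 without WT Plb 1 (edgeR adjusted p = 0.0317) and 0.16 without WT Plb 2 (edgeR adjusted p = 0.528). In KO it was -0.04 (SE 0.0949, edgeR adjusted p = 0.875), and the difference between the effects was 0.38 (SE 0.143, edgeR adjusted p = 0.284). Under placebo KO and WT overlapped, at -0.09 (SE 0.106), and this became 0.10 without WT Plb 1.

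The ligands of the receptor went different ways. Csf1 was at 133 and 121 CPM in WT Plb, at 171, 186 and 192 in WT E2, at 105, 116 and 119 in KO Plb, and at 87.0, 94.97 and 124 in KO E2. It was highest in WT E2 without overlap, as its receptor was. Csf1 was lower in KO than in WT under estradiol at -0.84 (SE 0.118, edgeR adjusted p = 0.000856), while estradiol in WT gave 0.53 (SE 0.132, edgeR adjusted p = 0.075). This effect in WT ran from 0.45 to 0.59 over 20 alternatives and passed the threshold in 3. Il34, the second ligand, was at 12.3 and 8.78 CPM in WT Plb, 4.30, 5.61 and 4.78 in WT E2, 9.05, 12.3 and 6.24 in KO Plb, and 4.80, 5.46 and 5.59 in KO E2. Every estradiol library was below every placebo library in both genotypes, with differences of -1.11 in WT (SE 0.252, edgeR adjusted p = 0.0511) and -0.80 in KO (SE 0.23, edgeR adjusted p = 0.0949), neither past the threshold. The WT value passed it in 9 of 20 alternatives, with adjusted p from 0.00463 to 0.237. The KO value passed it in 3 of 20 alternatives. Of the 11 genes listed for this axis, 4 were higher and 1 lower in KO than in WT under estradiol, with a median of 0.36. Over all genes the shares were 7.27% and 4.2%. The single lower gene was Csf1. The higher genes included Plcg2 at 0.90 (SE 0.144, edgeR adjusted p = 0.0022), a phospholipase shared by many blood cells, and Irf8 at 1.46 (SE 0.229, edgeR adjusted p = 0.00248), a factor of monocytes, dendritic and B cells. They also included Csf3r, the receptor for the granulocyte growth factor, at 4.14 (SE 0.747, edgeR adjusted p = 0.0117), whose call was lost without WT E2 1 or WT E2 3, with adjusted p up to 0.0543. With estradiol in KO, Irf8 alone of the 11 was called, at 1.06 (SE 0.226, edgeR adjusted p = 0.0351), and this call was lost in 7 of 20 alternatives. Over all genes 2.36% were called higher in that comparison.

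Cd68 encodes a lysosomal membrane glycoprotein of macrophages that osteoclasts also make. It was at 159 and 146 CPM in WT Plb, at 184, 192 and 194 in WT E2, at 138, 134 and 126 in KO Plb, and at 112, 130 and 139 in KO E2. The WT E2 libraries were tightly grouped above all others, and the WT Plb libraries lay above all KO libraries. Under estradiol Cd68 was lower in KO than in WT at -0.58 (SE 0.0873, edgeR adjusted p = 0.00146), or 1.496-fold. With C1qc and Csf1r, it stayed past the threshold in all 20 alternative analyses. Estradiol in WT gave 0.32 (SE 0.0981, edgeR adjusted p = 0.138), estradiol in KO gave -0.06 (SE 0.0872, edgeR adjusted p = 0.8), and the difference between them was 0.38 (SE 0.131, edgeR adjusted p = 0.224). Under placebo KO against WT gave -0.20 (SE 0.0971, edgeR adjusted p = 0.551). The count ratio of Cd68 to Csf1r was steady, from 0.387 to 0.512 (CV 7.31%). That of C1qa to Csf1r was less so, from 0.173 to 0.375, with the highest value in WT E2 3 and the next in WT Plb 2.

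**Figure D3:**
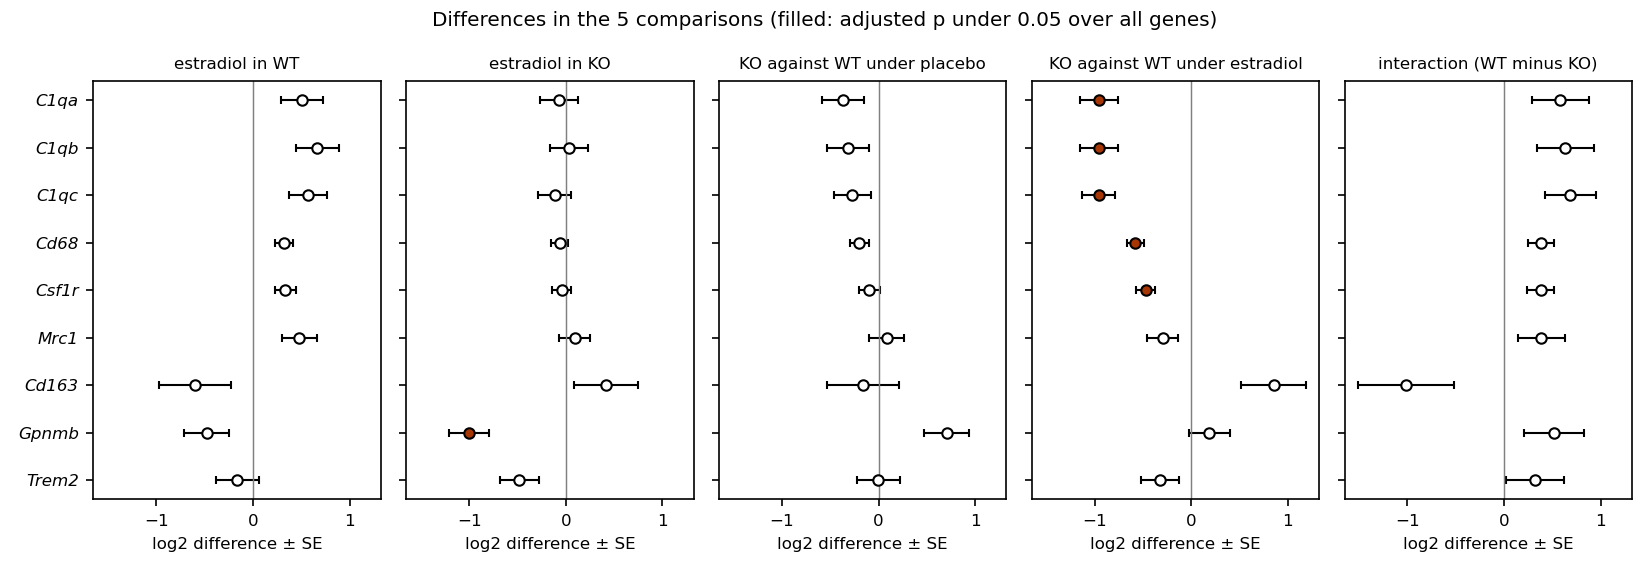
Log2 difference (horizontal axis) with SE of each of the 9 genes (vertical axis) in each comparison, with points marked where the adjusted p was under 0.05. C1qa, C1qb, C1qc, Cd68 and Csf1r passed in KO against WT under estradiol, and Gpnmb passed for estradiol in KO.

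Mrc1 and Cd163 encode scavenger receptors of resident macrophages, the mannose receptor and the receptor for haptoglobin bound to haemoglobin. Mrc1 was at 28.1 and 28.9 CPM in WT Plb, at 43.2, 40.9 and 35.0 in WT E2, at 23.7, 31.8 and 35.2 in KO Plb, and at 25.6, 33.5 and 37.6 in KO E2. The WT E2 libraries were above the WT Plb libraries. KO libraries ran from 23.7 to 37.6 CPM, from below WT Plb to within the range of WT E2. Estradiol in WT gave 0.48 (SE 0.183, edgeR adjusted p = 0.249), and KO against WT under estradiol gave -0.30 (SE 0.16, edgeR adjusted p = 0.258). The difference between the estradiol effects was 0.38 (SE 0.243, edgeR adjusted p = 0.643). Estradiol in KO gave 0.10 and KO against WT under placebo gave 0.09, and none of the 5 differences passed the threshold.

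Cd163 was scarce, with 39 to 124 counts per library, and ran the other way. It was at 3.72 and 4.56 CPM in WT Plb, at 3.47, 3.08 and 1.61 in WT E2, at 3.68, 4.55 and 2.85 in KO Plb, and at 3.57, 7.36 and 3.89 in KO E2. The WT E2 libraries were below both WT Plb libraries and below all KO E2 libraries, and KO E2 2 was the highest of all. Estradiol in WT gave -0.60 (SE 0.376, edgeR adjusted p = 0.54) and KO against WT under estradiol gave 0.85 (SE 0.335, edgeR adjusted p = 0.125). The former was -0.33 without WT E2 3, and the latter was 0.46 without KO E2 2. Estradiol in KO gave 0.42 (SE 0.33, edgeR adjusted p = 0.599), and 0.03 without KO E2 2. KO against WT under placebo gave -0.16 (SE 0.374). The difference between the estradiol effects was -1.02 (SE 0.5, edgeR adjusted p = 0.486), and -0.62 without KO E2 2, and none of the 5 differences was called. The count ratio of Cd163 to Mrc1 was 0.046 to 0.0804 in WT E2 and 0.0808 to 0.219 in the other libraries. Of 13 genes of haem and iron handling, 1 was higher and 1 lower in KO than in WT under estradiol. Over all genes the shares were 7.27% and 4.2%, so these counts do not set the list apart. Hp, which encodes the haptoglobin that CD163 takes up, was higher at 3.02 (SE 0.56, edgeR adjusted p = 0.0126, up to 0.0583 without WT E2 3). In KO E2, Hp was at 20.4, 78.1 and 41.5 CPM, and neutrophil markers, described below, summed to 1305, 4719 and 1633 in the same libraries. Which cells made Hp was not tested. Blvra, which turns biliverdin into bilirubin, was lower at -0.54 (SE 0.106, edgeR adjusted p = 0.00699).

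Trem2 encodes a receptor for lipids and cell debris that signals through the adaptor encoded by Tyrobp. Trem2 was at 7.54 and 7.14 CPM in WT Plb, at 5.76, 5.61 and 8.33 in WT E2, at 8.29, 7.78 and 5.90 in KO Plb, and at 4.41, 6.11 and 5.23 in KO E2. The groups overlapped in all 4 pairwise comparisons, and no difference was called. The lowest p was for estradiol in KO, at -0.48 (SE 0.2, edgeR adjusted p = 0.246). KO against WT under estradiol gave -0.32 (SE 0.2, edgeR adjusted p = 0.326) and under placebo -0.0043 (SE 0.222). Estradiol in WT gave -0.16 (SE 0.221, edgeR adjusted p = 0.825), and the interaction was 0.32 (SE 0.299, edgeR adjusted p = 0.808). Tyrobp was at 68.6 and 87.6 CPM in WT Plb, 104, 108 and 132 in WT E2, 62.5, 61.3 and 60.3 in KO Plb, and 62.6, 116 and 81.3 in KO E2. All estradiol libraries were above all placebo libraries of their genotype, with differences of 0.56 in WT (SE 0.216, edgeR adjusted p = 0.267) and 0.50 in KO (SE 0.191, edgeR adjusted p = 0.22), neither past the threshold. The count ratio of Trem2 to Tyrobp was 0.0519 to 0.0704 in the 6 estradiol libraries and 0.0816 to 0.133 in the 5 placebo libraries, with no overlap.

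Of 16 genes listed for the TREM2 pathway and its lipid-handling targets, 1 was higher and 4 were lower in KO than in WT under estradiol. Over all genes the shares were 7.27% and 4.2%. Lower genes included Ctsd, a lysosomal protease, at -0.33 (SE 0.0716, edgeR adjusted p = 0.0119). Apoe, a lipid carrier, was lower at -0.66 (SE 0.149, edgeR adjusted p = 0.0151), and Cd63, a protein of lysosomal membranes, at -0.37 (SE 0.0862, edgeR adjusted p = 0.018). These 3 calls were lost without KO E2 2, with adjusted p of 0.0538, 0.0652 and 0.0787, that of Apoe also without WT E2 3, and that of Cd63 also when only the 2 groups compared were fitted. Syk, the kinase that acts below TREM2 and also below the B cell receptor, was the higher gene at 1.31 (SE 0.186, edgeR adjusted p = 0.00162). Syk was also the single gene of the list called with estradiol in KO, at 0.86 (SE 0.184, edgeR adjusted p = 0.0376), a call lost in 9 of 20 alternatives with adjusted p up to 0.131. The share of all genes called higher there was 2.36%.

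Gpnmb encodes a transmembrane glycoprotein of macrophages, osteoclasts and osteoblasts, where it is also called osteoactivin, and of melanocytes. It had a pattern of its own. It was at 50.8 and 42.3 CPM in WT Plb, at 25.3, 44.1 and 31.0 in WT E2, at 66.4, 81.8 and 79.9 in KO Plb, and at 28.9, 43.5 and 41.9 in KO E2. All 3 KO Plb libraries lay above every library of the other groups, which overlapped one another. Prg4, a listed cartilage marker named for its values, was also highest in the 3 KO Plb libraries, at 141, 170 and 106 CPM. With estradiol Gpnmb fell in KO, at -0.998 (SE 0.207, edgeR adjusted p = 0.0351), or 1.997-fold, where 0.365% of all genes were called lower. The call was lost in 7 of 20 alternatives, each of which left out 1 library, namely any KO library or WT E2 3, with differences from -1.09 to -0.83 and adjusted p from 0.0523 to 0.0957. With the replicate number as a block it was -1.01 with an edgeR adjusted p of 0.0129. In the authors' deposited table the value was -0.98 with an adjusted p of 4.85e-08. Other transcripts moved in the same comparison, and their part in it was not tested. Muscle markers summed to 104 to 900.1 CPM in KO Plb and 13.7 to 18.4 in KO E2, with 13 of 14 lower in every library and 0 called. Cell cycle markers summed to 289 to 291 CPM in KO Plb and 554 to 721 in KO E2, with 8 of 10 called higher. Genes listed as osteoblast markers summed to 80050 to 85030 CPM in KO Plb and 61660 to 76280 in KO E2, with 4 of 10 lower in every library and 1 called lower. Col1a1 made up most of this sum, with group means of 74930 and 64570 CPM, so the sum cannot be read as a measure of osteoblasts. Over all genes, 12.4% were lower in every library, 2.36% were called higher and 0.365% lower.

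Estradiol in WT gave -0.48 for Gpnmb (SE 0.231, edgeR adjusted p = 0.398), with overlap between the groups. The effects in WT and KO were not shown to differ, since their difference was 0.52 (SE 0.311, edgeR adjusted p = 0.63). Under placebo Gpnmb was higher in every KO library than in both WT libraries, at 0.71 (SE 0.234, edgeR adjusted p = 0.511), where 13.2% of all genes had KO libraries above WT without overlap. The authors' deposited table gave 0.69 for this pair with an adjusted p of 0.00326, so its call differs from the one made here. Under estradiol KO against WT was 0.19 (SE 0.208, edgeR adjusted p = 0.61). The count ratio of Gpnmb to Cd68 was 0.32 and 0.291 in WT Plb, 0.137, 0.229 and 0.16 in WT E2, 0.481, 0.61 and 0.636 in KO Plb, and 0.258, 0.334 and 0.301 in KO E2. It was highest in KO Plb and lowest in WT E2, without overlap with the other groups. Of 6 melanocyte markers, 1 had counts enough to be tested, and the list summed to 0.538 to 1.63 CPM. Of 9 genes of the MITF and TFE factors and their lysosomal targets, the factors known to act on Gpnmb, 0 were called with estradiol in either genotype. The shares over all genes were 1.55% in WT and 2.73% in KO. Atp6v1h, a proton pump subunit, was lower in KO than in WT under estradiol at -0.27 (SE 0.0787, edgeR adjusted p = 0.0473), a call lost in 10 of 20 alternatives. It was the single one of the 9 called there, where 4.2% of all genes were called lower.

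The order of levels can be given per length, as CPM per kilobase of the merged exons of GENCODE M21. That annotation may differ from the one the authors used, and merged exons take in every annotated isoform. A gene with long alternative exons thus gets a lower value, and the order depends on these lengths. C1qc, with counts near those of C1qb, was divided by 1931 bases and C1qb by 1088. Trem2 was divided by 4946 bases. In WT Plb Cd68 was highest at 121, followed by C1qa at 77.3, C1qb at 66.9, Csf1r at 56.6 and C1qc at 39.6. Gpnmb at 7.15, Mrc1 at 4.47, Trem2 at 1.48 and Cd163 at 0.758 were lower by this measure. Within libraries and with the same lengths, Cd68 was above C1qa, C1qa above C1qb, C1qc above Gpnmb and Mrc1 above Trem2 in 11 of 11. C1qb was above Csf1r in 7 of 11 libraries and Gpnmb above Mrc1 in 9 of 11, so the order of these neighbours was not fixed. Csf1r was above C1qc, and Trem2 above Cd163, in 10 of 11. Taken over all libraries, the ranges of C1qc and Gpnmb and those of Mrc1 and Trem2 did not overlap, and those of the other neighbours did. Between groups, C1qa went from 56.8 in KO E2 to 110 in WT E2, and Gpnmb from 5.14 in WT E2 to 11.7 in KO Plb.

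Other macrophage genes were taken from a list of 25, of which 24 were tested and Marco was not. Under estradiol 10 of the 24 were lower in KO than in WT and 0 were higher, with a median of -0.38. Over all genes 4.2% were called lower there and 7.27% higher. With estradiol in WT 2 were higher and 0 lower, with a median of 0.35, and with estradiol in KO 0 were called, with a median of 0.0988. Over all genes 0.654% were called higher and 0.895% lower with estradiol in WT, and 2.73% were called with estradiol in KO. Cx3cr1, the fractalkine receptor, was at 30.1 and 26.7 CPM in WT Plb, 54.3, 46.7 and 53.3 in WT E2, 22.03, 22.4 and 21.5 in KO Plb, and 22.4, 23.2 and 29.8 in KO E2. The WT E2 libraries stood clear of all others. Estradiol raised Cx3cr1 in WT by 0.86 (SE 0.128, edgeR adjusted p = 0.00417), and it was lower in KO under estradiol at -1.03 (SE 0.113, edgeR adjusted p = 0.00018).

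Siglec1, a sialic acid receptor of resident macrophages, was at 13.1 and 7.83 CPM in WT Plb, 32.7, 26.1 and 26.2 in WT E2, 9.09, 6.99 and 9.34 in KO Plb, and 8.99, 8.25 and 9.88 in KO E2. Estradiol raised Siglec1 in WT by 1.43 (SE 0.212, edgeR adjusted p = 0.00403), and it was lower in KO under estradiol at -1.65 (SE 0.185, edgeR adjusted p = 0.000207). It was also the single gene of this list whose effect of estradiol differed between genotypes, by 1.33 (SE 0.28, edgeR adjusted p = 0.0446). That call was lost in 10 of 19 alternatives, with adjusted p up to 0.132 when WT Plb 2 was left out. Over all genes 0.31% were called higher in the interaction. Ms4a7, a membrane protein of resident macrophages, was lower in KO under estradiol at -0.66 (SE 0.134, edgeR adjusted p = 0.00865), as was Cd14, the co-receptor for endotoxin, at -0.86 (SE 0.182, edgeR adjusted p = 0.0108). Not every macrophage transcript did this. Lyz2, lysozyme of macrophages and granulocytes alike, was at 212 to 356 CPM in WT E2 and 329 to 876 in KO E2, highest in KO E2 2. Lyz2 was named after its values were seen.

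**Figure D4:**
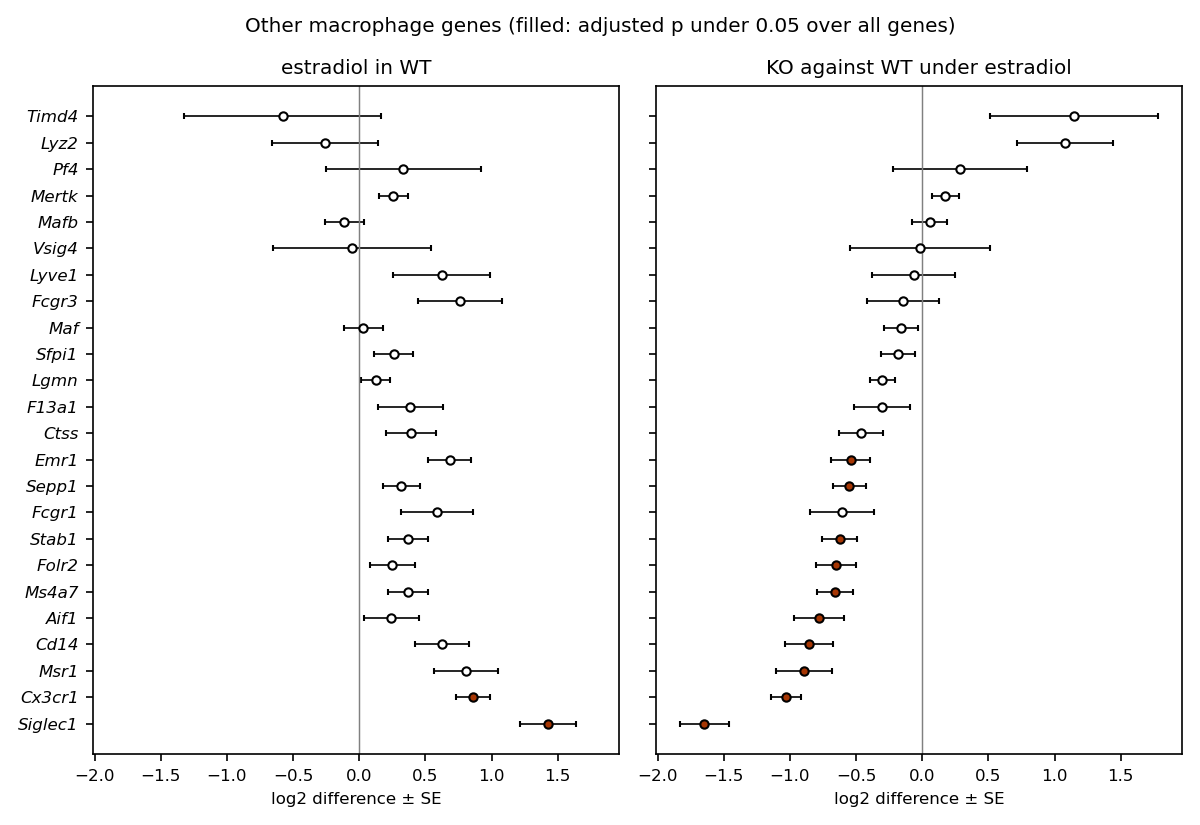
Log2 difference with SE (horizontal axes) of the 24 tested genes of the list of other macrophage genes (vertical axis, ordered by the right panel), for estradiol in WT and for KO against WT under estradiol, with filled points where the adjusted p was under 0.05. Cx3cr1 and Siglec1 are filled in both panels, which share the WT E2 libraries, and 10 genes are filled in the right panel.

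Markers of other cells moved with the same groups, and their part in the results above was not tested. For KO against WT under estradiol, the lists below stand beside 7.27% of all genes called higher and 4.2% lower. Osteoclast markers, which come from the same lineage, summed to 9671 to 11610 CPM in WT Plb, 13430 to 13800 in WT E2, 9457 to 10740 in KO Plb and 8790 to 10420 in KO E2, so WT E2 stood above all others as for C1q, Cd68 and Csf1r. Acp5, Mmp9 and Ctsk made up most of this sum, with means of 5372, 3734 and 3125 CPM in WT E2. Of 15 osteoclast markers, 8 were lower and 0 higher in KO than in WT under estradiol, with a median of -0.38. A log2 difference above 0 was seen for 1 of the 15, Car2, with means of 38.95 CPM in WT E2 and 64.04 in KO E2. Acp5, the tartrate-resistant phosphatase, was lower at -0.82 (SE 0.104, edgeR adjusted p = 0.000491). Ocstamp and Dcstamp, which act in cell fusion, were lower at -0.73 (SE 0.115, edgeR adjusted p = 0.00191) and -0.62 (SE 0.0983, edgeR adjusted p = 0.00195). Atp6v0d2, an osteoclast proton pump subunit, was lower at -0.56 (SE 0.0944, edgeR adjusted p = 0.00304). Estradiol in WT raised 2 of the 15, Acp5 by 0.61 (SE 0.118, edgeR adjusted p = 0.0224, up to 0.124 without WT Plb 2) and Ocstamp by 0.59 (SE 0.13, edgeR adjusted p = 0.0466, up to 0.196 without WT Plb 2). The Ocstamp call held in 9 of 20 alternatives. With estradiol in WT, 0.654% of all genes were called higher and 0.895% lower.

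Neutrophil markers summed to 8.68 to 44.4 CPM in WT E2 and 1305 to 4719 in KO E2, with 223 and 502 in WT Plb and 1.61 to 763 in KO Plb. Of 14 such genes, 10 were higher and 0 lower in KO than in WT under estradiol. B lineage markers summed to 18.9 to 22.3 CPM in WT E2 and 186 to 322 in KO E2, with 58.8 and 65.3 in WT Plb and 91.4 to 207 in KO Plb, and 11 of 11 were higher in KO under estradiol. Both lists were thus lower in all WT E2 libraries, where the C1q genes, Cd68 and Csf1r were highest, than in all KO E2 libraries. Of 9 monocyte markers 6 were higher and 0 lower in KO under estradiol, and of 7 dendritic cell markers 4 were higher and 0 lower. Erythroid markers summed to 24.01 to 24.6 CPM in WT E2 and 19.2 to 208 in KO E2. Muscle markers summed to 38.7 to 299.8 CPM in WT E2 and 13.7 to 18.4 in KO E2, and 0 of 14 were called. Osteoblast markers summed to 55090 to 70620 CPM in WT E2 and 61660 to 76280 in KO E2. Col1a1 made up most of this sum, with group means of 54690 and 64570 CPM, while Ibsp went the other way, at 5991 and 2747. Of the 10 osteoblast markers, 5 had a log2 difference above 0 in KO under estradiol, 0 were called higher and 3 lower.

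**Figure D5:**
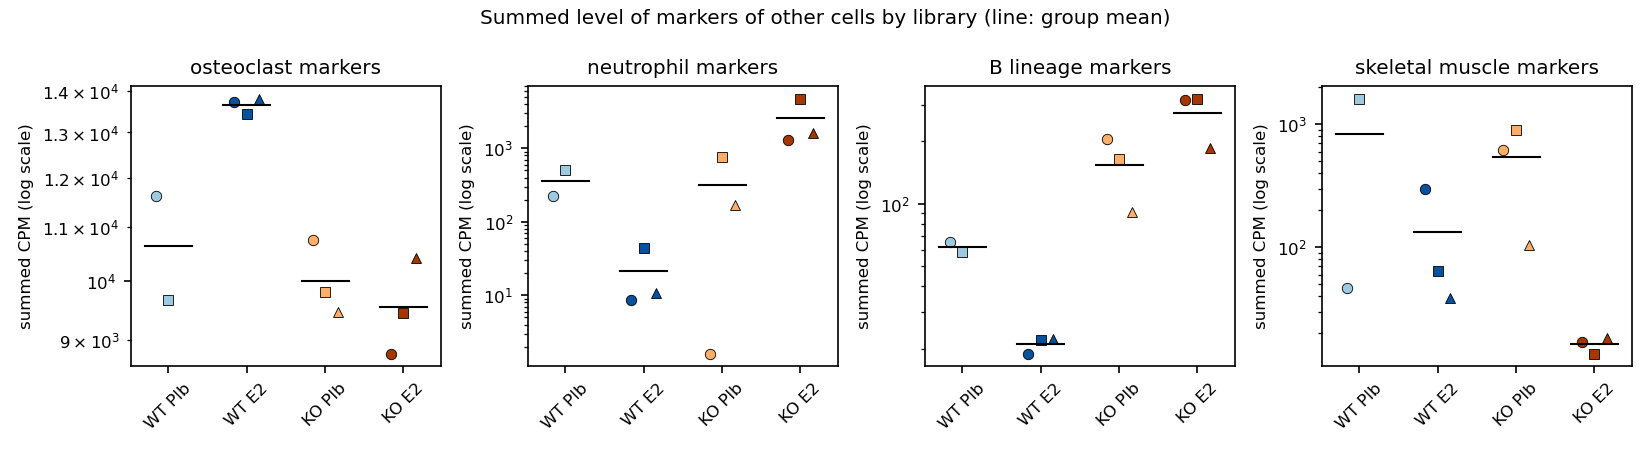
Summed CPM (log vertical axes, each with its own range) of osteoclast, neutrophil, B lineage and skeletal muscle markers in each library by group, with circle, square and triangle for replicates 1, 2 and 3 and a line at the group mean. Osteoclast markers are highest and B lineage markers lowest in WT E2, neutrophil markers are highest in KO E2, and muscle markers are highest in WT Plb 2.

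The genes with the most similar patterns were ranked by Pearson r of log2 CPM over the 11 libraries, among 12468 genes with a mean of at least 1 CPM. The libraries are shared, so r is a description only and carries no p. For the mean of the 3 C1q chains these were Ms4a7 (r = 0.976), Hras1 (0.966), Clec4n (0.966), Ifngr2 (0.965) and Rnasek (0.959). Clec4n, a fungal pattern receptor of myeloid cells, had group means of 10.3 CPM in WT Plb, 17.9 in WT E2, 7.31 in KO Plb and 7.46 in KO E2. For Gpnmb they were Smoc2 (0.936), a matrix protein gene, Thap3 (0.913), Arhgef17 (0.911), Clasrp (0.903) and Endov (0.885). Smoc2 had group means of 143, 105, 177 and 121 CPM in the same order. For Cd163 they were Capn1 (0.959), Tomm34 (0.919), Coro2a (0.893), Hpse (0.89) and Gria3 (0.886).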

How the data were processed

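RNA was sequenced from 11 libraries of condylar fibrocartilage. The submitters' processing notes name bcl2fastq 2.17, TopHat and build mm9, with the counting program, annotation and strand setting not given in the sources used here. Raw values come from 1 deposited table, which holds counts for 23420 symbols, of which 5218 had no count in any library. Per the file headers, the authors' comparison tables give log2 fold changes with standard errors and adjusted p-values, and values taken from them are named as such.

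From the counts, edgeR 4.0.16 in R 4.3.3 kept 14531 genes (filterByExpr, count minimum 10, total 15) holding 99.98% of counts. TMM scaling and a robust quasi-likelihood fit to the 4 groups over all 11 libraries followed, with 7 residual degrees of freedom and a common coefficient of biological variation of 15.8%. SE is the absolute log2 value divided by the square root of F. CPM are TMM-scaled, and totals of 15.68 to 25.46 M counts set their precision. No pair of libraries of 1 group matched within sampling noise.

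Alternatives were DESeq2 1.42.0, voom in limma 3.58.1, RLE and upper quartile scaling, no Rn45s, no filter, only the groups compared, a replicate block, a threshold of 0.1 and each library left out. Same-numbered libraries of KO Plb and KO E2 deviated together (r from 0.183 to 0.42 in 3 of 3 pairs). Those of WT Plb and WT E2 deviated oppositely (r of -0.188 and -0.176). Deviations were taken from the group means, so pairs of the same groups are not independent. No label says what the number marks, so the block is given as an alternative and not as a known pairing. The genes and lists were chosen with earlier results of these data known. All 9 genes are named, with up to 4 called genes of smallest p from each other list, fixed partners and the 5 most similar genes for 3 patterns. Other genes are named for their values where the text says so. Reads shared with overlapping or antisense genes cannot be told apart.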

Additional observations from a re-analysis of the deposited data

Results flagged for a closer look

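The effect of estradiol differed between genotypes for 2 named genes, both outside the 9 genes, by edgeR's interaction test. For Siglec1 the log2 effect in WT minus that in KO was 1.33 (adjusted p = 0.0446), past the threshold in 9 of 19 alternatives, with adjusted p from 0.000996 to 0.132. For Csf3r it was -5.81 (adjusted p = 0.0493), past it in 8 of 19, with adjusted p up to 0.176 without WT Plb 2. Groups of 2 or 3 libraries were too small for a test of outlying samples.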

How the results depend on the processing

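Of 891 alternative values for the 45 differences of the 9 genes, 14 turned in sign, 9 fell short of the threshold that the reported value passed and 3 passed it where the reported value did not; the cause was not tested. The number of the 9 genes called with estradiol in KO was 1, and 0 to 1 with 1 library left out. With estradiol in WT it was 0, but 1 under DESeq2, and 0 to 1 with 1 library left out. In KO against WT under estradiol it was 5, but 6 with the replicate block, which added Cd163 (0.85, adjusted p = 0.0482), and 3 to 5 with 1 library left out. The values that turned in sign were all of uncalled differences. For KO against WT under placebo they were Trem2 at 0.0007 with no filter and 0.0007 with only the groups compared, and Cd163 at 0.0316 with the replicate block. With 1 library left out, this difference ran from -0.1030 to 0.1288 for Trem2 (above 0 without WT Plb 1 or KO Plb 3), from -0.2684 to 0.1042 for Csf1r (above 0 without WT Plb 1) and from -0.0391 to 0.2359 for Mrc1 (below 0 without KO Plb 3). For estradiol in KO it ran from -0.2529 to 0.0352 for C1qa and from -0.1325 to 0.0227 for Cd68 (both above 0 without KO E2 1), from -0.1674 to 0.1668 for C1qb (below 0 without KO Plb 1, KO Plb 2 or KO E2 3) and from -0.0543 to 0.2358 for Mrc1 (below 0 without KO Plb 1 or KO E2 3). With 1 library left out, C1ra with estradiol in WT ran from -0.1098 to 0.0724. Over all groups, same-numbered libraries deviated together (r over 0.1) in 9 of 15 pairs of libraries, in 3 of 3 between KO Plb and KO E2 and in 0 of 3 between WT E2 and KO E2. Apart from Cd163, the block changed no call of the 9 genes. Of 33 called values of other named genes that were recomputed, 17 stayed past the threshold in every alternative. Over all genes, the calls ranged from 56 to 241 higher and 57 to 402 lower for estradiol in WT (95 and 130 as reported), from 100 to 683 and 4 to 254 for estradiol in KO (343 and 53), from 27 to 137 and 40 to 408 for the interaction (45 and 122), from 0 to 23 and 1 to 27 for KO against WT under placebo (0 and 1) and from 574 to 1491 and 277 to 1021 under estradiol (1056 and 611). The comparison of only 2 groups gives no separate interaction value. Cd163, with 39 to 124 counts per library, is the member most limited by depth.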
